A study of Mus musculus with 24 samples.

Results

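The genes described here are 10 enzymes that make serine, glycine, asparagine and folate-bound one-carbon units: Phgdh, Psat1, Psph, Shmt1, Shmt2, Mthfd1, Mthfd1l, Mthfd2, Aldh1l2 and Asns. They were chosen by symbol, with earlier results of these data known. All 10 were found among the 54242 genes of an RNA-seq table of mouse embryonic stem cells (ESCs). Of these, 9 passed the filter on low values, and Aldh1l2 did not.

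Serine is built from a glycolytic intermediate in 3 enzymatic steps, catalysed in turn by PHGDH, PSAT1 and PSPH. The serine hydroxymethyltransferases, SHMT1 in the cytosol and SHMT2 in mitochondria, then split serine into glycine and a one-carbon unit carried on folate. In mitochondria MTHFD2 and MTHFD1L pass that unit on as formate and ALDH1L2 can oxidise it to carbon dioxide, whereas in the cytosol the trifunctional enzyme MTHFD1 brings formate back into the folate pool for purine and thymidylate synthesis. ASNS makes asparagine from aspartate and glutamine. Several of these genes are known targets of ATF4, the transcription factor of the amino acid and integrated stress response.

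The cells are CGR8, an established mouse ESC line, transfected with a pool of non-targeting siRNAs (siControl, here si-CTL) or with siRNAs against Rsl24d1 (siRSL24D1, here si-Rsl24d1), a factor of the large ribosomal subunit assembly. At day 0 cells were kept in serum with LIF, the cytokine that holds ESCs in self-renewal. At day 4 they had been in serum with 10 nM retinoic acid (RA) for 4 days. The study's methods describe these 4 days as without LIF, a point on which the sources disagree. Each siRNA was used without doxycycline (nores) and with doxycycline that induces ectopic RSL24D1 (RESCUE, here with rescue), which gives 8 groups of 3 libraries, 24 in all. The study's methods describe a CGR8-RESCUE line with a doxycycline-inducible construct, whereas the sample labels call the cells without doxycycline empty_vector and those with it RSL24D1_OE, so it is not certain that all libraries come from the same line. Rsl24d1 transcripts counted in the rescue groups can therefore come from either source. No group is described as given doxycycline alone. Effects of doxycycline, of ectopic RSL24D1 and of any difference in line thus cannot be told apart in comparisons with and without rescue. The submitters describe the triplicates as independent, and the study's figure of gene signatures calls them biological replicates. Neither says that they were separate cultures, so p-values measure the spread between these libraries, which may be partly technical.

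Levels are given in TPM, a relative transcript abundance that is scaled for transcript length and for the library total and can be compared between genes. Differences are between means of log2(TPM + 1), which understates changes of weakly expressed genes. A gene was called where limma's adjusted p was below 0.01 and the change exceeded 1.8-fold, which is 0.848 on the log2 scale. Counts of members at an unadjusted p under 0.05 have no share of all genes beside them, so they are no result about the members. In bulk RNA fewer cells of a type and less RNA per cell cannot be told apart.

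Rsl24d1 was checked first, in every group. At day 0 it fell from 148, 140 and 136 TPM with si-CTL to 36.6, 37.9 and 32.7 TPM with si-Rsl24d1, a difference of -1.95 on the log2 scale (SE 0.07, adjusted p = 3.2e-14, limma). With rescue it stood at 103, 96.1 and 121 TPM in si-Rsl24d1 cells. At day 4 without rescue, however, the libraries labelled si-Rsl24d1 held 89.3, 96.3 and 99.8 TPM against 95.9, 101 and 96.7 TPM, a difference of -0.04 (adjusted p = 0.66). Rsl24d1 mRNA was thus not detectably lower at day 4, so the day 4 libraries are named by their label only. Embryonic stem cell markers were present in all groups, with a summed level of Pou5f1, Nanog, Sox2, Zfp42, Esrrb and Dppa5a between 3922 and 5410 TPM at day 0 and between 5914 and 6987 TPM at day 4. Most of that sum is Dppa5a. With RA in si-CTL cells without rescue 4 of the 6 markers fell by the adjusted p, Pou5f1 by 1.10, and 2 rose, Dppa5a (1.03) and Nanog (0.79), with a median of -0.59 over the list. The summed fibroblast marker list rose from at most 46.7 TPM in any day 0 library to at least 90.6 TPM in every day 4 library, and its highest value was 239 TPM in a library labelled si-Rsl24d1. The primitive endoderm list stood at 3.68 to 7.61 TPM at day 0 and 14.4 to 35.8 TPM at day 4, the trophoblast list at 252 to 338 and 344 to 534 TPM, and the neural progenitor list at 72.4 to 94.0 and 34.7 to 57.5 TPM. By means over 24 libraries, Krt8 (171 TPM) and Krt18 (186 TPM) made up most of the trophoblast sum. Dab2 (10.3 TPM) and Tubb3 (40.7 TPM) did so for the primitive endoderm and neural progenitor lists. Under RA in si-CTL cells without rescue, 4 fibroblast markers rose by the adjusted p and 1 fell. Of 4 tested markers per list, 4 rose for primitive endoderm, 1 rose and 1 fell for trophoblast, and 1 rose and 2 fell for neural progenitor. By the same rule 36.7% of all genes fell and 24.1% rose, and shares near these are no result about a list. The part of these cell type markers in the day 4 results below was not tested.

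The 10 genes lie on 7 chromosomes of GRCm38, and all are protein coding in the gencode annotation. Phgdh spans chr3:98313170-98339990, Psat1 chr19:15904678-15947337, Psph chr5:129765558-129787449 and Shmt1 chr11:60788104-60811718, all on the minus strand. Shmt2 (chr10:127517123-127522444), Mthfd2 (chr6:83305691-83325908), Aldh1l2 (chr10:83487450-83534140) and Asns (chr6:7675169-7693254) are also on the minus strand, whereas Mthfd1 (chr12:76255298-76319803) and Mthfd1l (chr10:3973118-4167081) are on the plus strand. Some members share sequence with other genes. Psph overlaps Cct6a, a chaperonin subunit gene on the opposite strand, by 452 exonic bases, and Cct6a averaged 696 TPM against 26.7 TPM for Psph. The sources name different library kits and do not say whether strand was used in the quantification, so Psph values are uncertain in this respect. Cct6a was picked for this overlap after its values were seen. Phgdh has 19 other annotated genes that match it at 90% identity or more over at least 200 bases, of which 17 are pseudogenes. Of the 19, 2 have no value in the table and the others sum to 1.95 TPM, or 1.74% of Phgdh, nearly all of it from the lincRNA Gm44983 (1.82 TPM).

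Promoters from 250 bases before to 50 bases after the annotated start were taken from RefSeq on GRCm38.p6 for 9 members, 10 promoters in all since Psat1 has 2. Both strands were searched for TGATGNAA, the core of the composite element bound by C/EBP and ATF factors, and for CACGTG, the E-box bound by Myc and Max. The first motif was found in 1 of the 10 promoters, that of Asns, against 3.97% of 32851 mouse promoters, and the second in 0 of 10 against 7.15%. A match is a description of letters in this window and not a binding site. The Asns promoter is printed because it holds the match, with the match in capitals, beside those of Mthfd2, the member with the largest fall after knockdown, and Phgdh, the first enzyme of serine synthesis. All 3 are read on the minus strand.
Asns, chr6:7693160-7693459: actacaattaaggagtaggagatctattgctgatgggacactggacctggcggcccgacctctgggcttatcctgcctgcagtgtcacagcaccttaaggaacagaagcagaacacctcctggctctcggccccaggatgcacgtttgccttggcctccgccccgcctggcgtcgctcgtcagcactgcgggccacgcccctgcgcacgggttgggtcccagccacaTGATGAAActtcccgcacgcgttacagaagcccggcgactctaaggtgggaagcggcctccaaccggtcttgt
Mthfd2, chr6:83317555-83317854: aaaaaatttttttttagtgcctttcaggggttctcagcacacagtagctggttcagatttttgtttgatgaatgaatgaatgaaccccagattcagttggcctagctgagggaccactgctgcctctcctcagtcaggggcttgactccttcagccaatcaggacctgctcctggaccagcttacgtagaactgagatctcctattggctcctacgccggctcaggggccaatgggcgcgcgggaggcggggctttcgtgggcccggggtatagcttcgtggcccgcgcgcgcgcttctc
Phgdh, chr3:98339920-98340219: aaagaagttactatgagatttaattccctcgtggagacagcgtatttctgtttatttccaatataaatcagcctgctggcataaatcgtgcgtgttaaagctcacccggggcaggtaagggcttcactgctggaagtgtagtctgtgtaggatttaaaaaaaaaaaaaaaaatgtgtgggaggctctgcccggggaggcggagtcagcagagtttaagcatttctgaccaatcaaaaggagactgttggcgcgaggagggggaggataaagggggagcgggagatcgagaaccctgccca
In Asns the match begins 23 bases before the annotated start. The Mthfd2 window lies inside the gencode span of the gene, at an internal start that RefSeq uses.

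Among the 10 enzymes Asns was the most abundant over the 24 libraries with a mean of 291 TPM, followed by Psat1 (176 TPM), Shmt1 (133 TPM), Phgdh (112 TPM), Mthfd1 (94.4 TPM), Shmt2 (75.4 TPM), Mthfd2 (67.1 TPM), Mthfd1l (32.3 TPM) and Psph (26.7 TPM). Aldh1l2, at 0.363 TPM, was near the lower end of the scale in every library. The ranges of neighbours in this order overlapped over the 24 libraries for all pairs apart from Psph and Aldh1l2. At day 0 with si-CTL, Psat1 was the highest and Asns was level with Shmt1. Their libraries held 200, 187 and 181 TPM for Asns and 190, 188 and 187 TPM for Shmt1, which overlap.

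**Figure D1:**
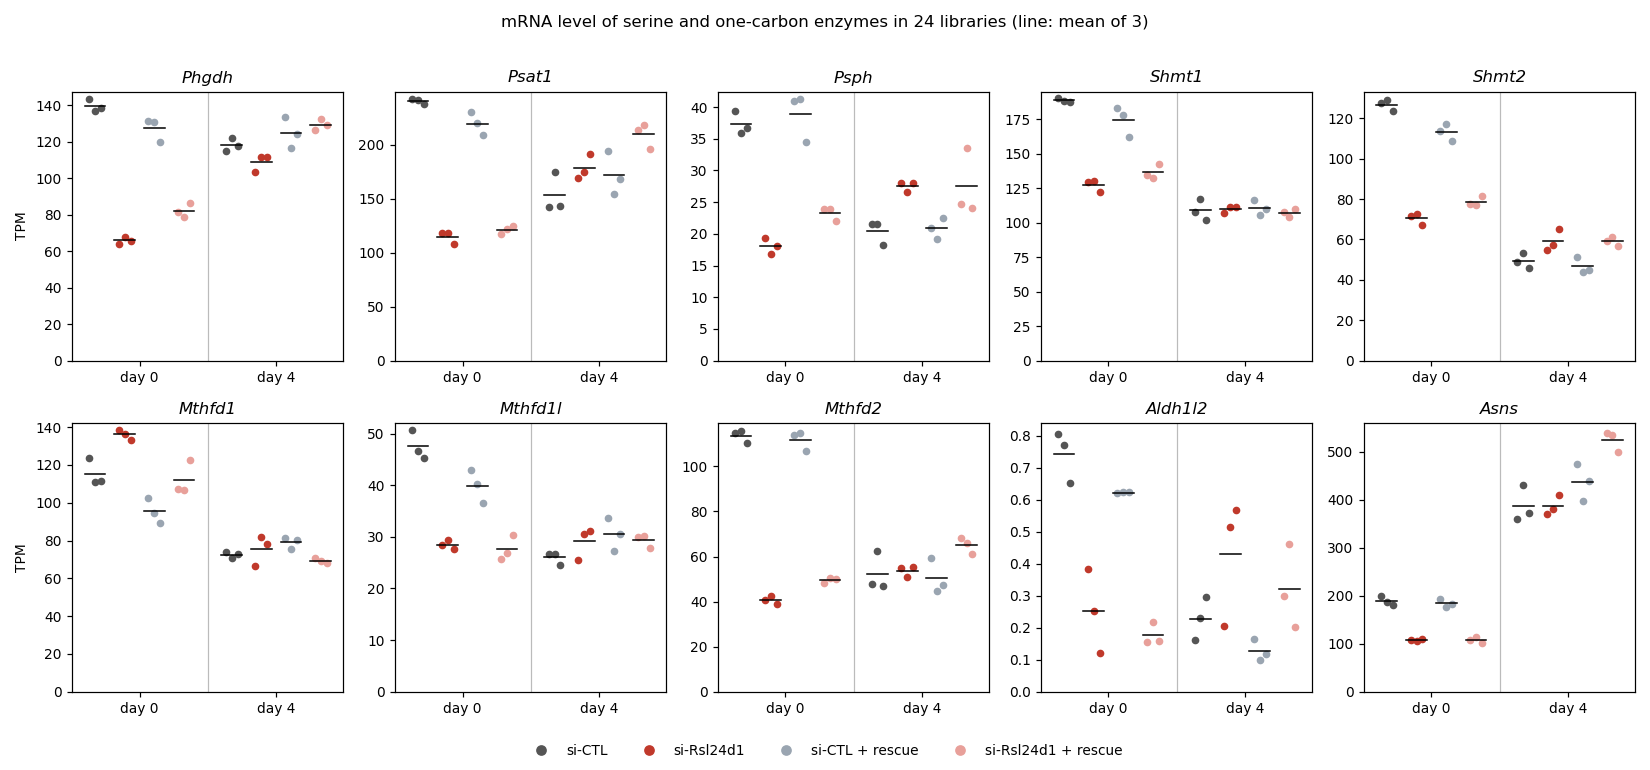
TPM of each of the 10 enzymes (y axis, own scale per gene, from 0) in the 24 libraries, grouped by day on the x axis, with 1 point per library, colour for siRNA and rescue, and a line at the mean of 3. At day 0 the si-Rsl24d1 points lie below the si-CTL points for every enzyme except Mthfd1, and at day 4 Asns reaches 499 to 539 TPM with the si-Rsl24d1 label and rescue.

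In self-renewing ESCs, si-Rsl24d1 libraries had lower mRNA levels than si-CTL libraries for 8 of the 9 tested enzymes. These covered serine synthesis, both hydroxymethyltransferases, the mitochondrial Mthfd2 and Mthfd1l, and Asns. Mthfd2, Phgdh, Psat1 and Psph were called lower, that is, 4 of 9 members against 0.772% of all 16447 genes tested. With the adjusted p alone, 8 of 9 members fell (16.1% of all genes) and 1, Mthfd1, rose (14.3% of all genes). Since the members were chosen with earlier results of these data known, these counts beside all genes are description only. The median difference of the 9 members was -0.84, against -0.01 over all genes. For 8 members all 3 si-Rsl24d1 libraries lay below all 3 si-CTL libraries, as they did for 27.3% of all genes. The summed level of the 10 enzymes was 1172 to 1234 TPM with si-CTL and 691 to 721 TPM with si-Rsl24d1.

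The 3 steps of serine synthesis fell to similar extents. Phgdh, the entry enzyme, was at 143, 137 and 139 TPM in si-CTL libraries and at 64.0, 67.9 and 65.5 TPM in si-Rsl24d1 libraries. The groups are well apart, and the difference was -1.07 (SE 0.05, 95% interval -1.18 to -0.97, adjusted p = 1.3e-12). Psat1, the aminotransferase, went from 243, 241 and 238 TPM to 118, 118 and 108 TPM, a difference of -1.06 (SE 0.08, adjusted p = 1.4e-09). Psph, the phosphatase that releases serine, went from 39.3, 35.9 and 36.6 TPM to 19.3, 16.9 and 18.0 TPM, a difference of -1.01 (SE 0.10, adjusted p = 1e-07). Every enzyme of the pathway was thus estimated near 50% of its control level, at 47.5% for Phgdh, 47.9% for Psat1 and 49.8% for Psph on the log2(TPM + 1) scale. The 95% intervals of the differences reach -0.97, -0.90 and -0.80 in this order, so they include levels above 50%. Cct6a, which overlaps Psph, differed by -0.15 (SE 0.05, adjusted p = 0.016).

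The largest fall of all members was that of Mthfd2, the mitochondrial methylenetetrahydrofolate dehydrogenase and cyclohydrolase. It was at 115, 116 and 110 TPM in si-CTL libraries and at 40.7, 42.3 and 38.9 TPM in si-Rsl24d1 libraries. This is a difference of -1.46 (SE 0.09, 95% interval -1.65 to -1.27, adjusted p = 1.6e-10), or 36.3% of the control. Mthfd1l, which releases formate in mitochondria, fell by 0.72 (SE 0.08, adjusted p = 7.3e-07), from between 45.2 and 50.8 TPM to between 27.7 and 29.3 TPM. The cytosolic Mthfd1 went the other way. Its libraries held 124, 111 and 111 TPM with si-CTL and 139, 137 and 133 TPM with si-Rsl24d1, a difference of 0.24 (SE 0.07, adjusted p = 0.008). The ratio of Mthfd2 to Mthfd1 TPM was between 0.927 and 1.04 in control libraries and between 0.292 and 0.310 after knockdown.

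Both hydroxymethyltransferases fell by the adjusted p without passing the fold threshold. Shmt2, the mitochondrial form, was at 128, 129 and 124 TPM and then at 71.6, 72.8 and 67.2 TPM. Its difference of -0.84 (SE 0.06, adjusted p = 2.8e-09) is 1.79-fold and lies just below that threshold. Shmt1, the cytosolic form, was at 190, 188 and 187 TPM and then at 129, 130 and 122 TPM, a difference of -0.56 (SE 0.05, adjusted p = 3.2e-08). The ratio of Shmt2 to Shmt1 TPM was between 0.661 and 0.686 in control libraries and between 0.551 and 0.558 after knockdown, with no overlap.

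Asns fell from 200, 187 and 181 TPM to 108, 106 and 111 TPM, a difference of -0.80 (SE 0.07, adjusted p = 1.2e-08) that is also below the fold threshold. Aldh1l2 was at 0.806, 0.773 and 0.653 TPM and then at 0.385, 0.252 and 0.122 TPM. In a fit without the filter, over 35764 genes, this is a difference of -0.48 (SE 0.09, adjusted p = 0.00052), at a level where a few reads decide the value. Aldh1l2 overlaps D10Wsu102e on the opposite strand by 1056 exonic bases, and that gene, picked for this overlap, averaged 1.48 TPM. Atf4 mRNA moved with the members: it was at 169, 177 and 173 TPM and then at 98.9, 97.3 and 101 TPM, a difference of -0.80 (SE 0.10, adjusted p = 1.3e-06). The summed level of the ESC marker list was lower in these libraries too, at 3922 to 3973 TPM against 4894 to 5062 TPM with 5 of 6 markers lower by the adjusted p. The fibroblast list was at 27.6 to 28.7 TPM against 37.1 to 46.7 TPM, with 2 of 5 markers lower. The trophoblast list was at 318 to 338 TPM against 284 to 293 TPM, but 0 of its 4 tested markers passed the adjusted p. By the same rule 16.1% of all genes were lower and 14.3% higher. The part of these marker lists in the falls was not tested.

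**Figure D2:**
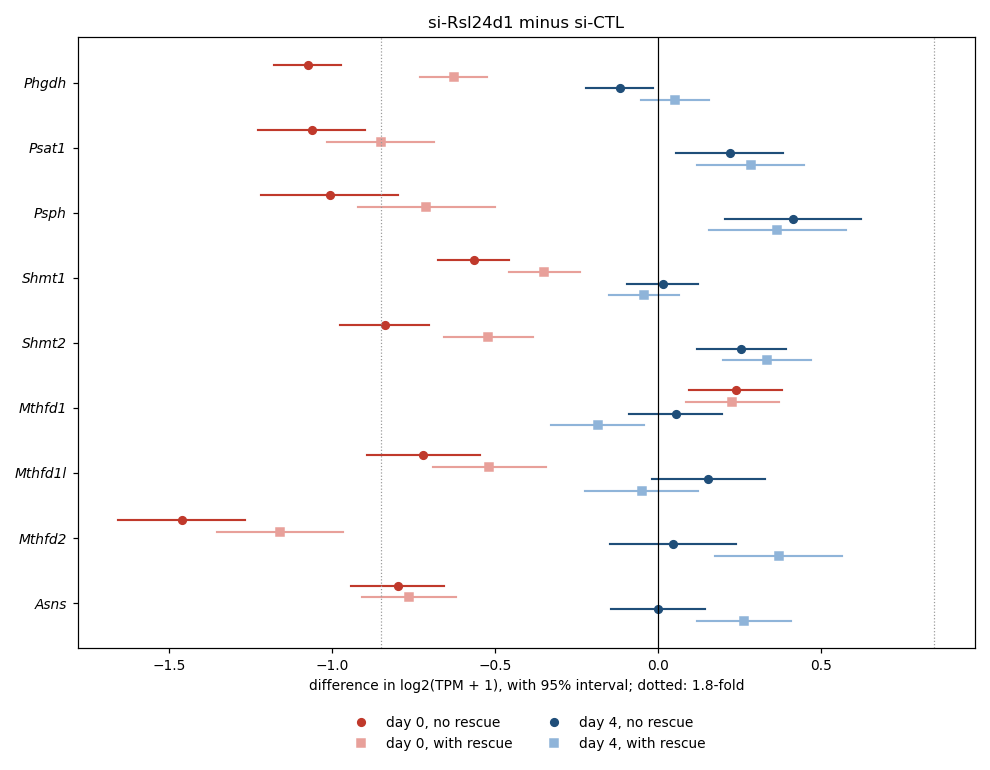
Difference in log2(TPM + 1) between si-Rsl24d1 and si-CTL libraries (x axis, limma estimate with 95% interval) for the 9 tested enzymes (y axis), with 1 symbol for each combination of day and rescue and dotted lines at 1.8-fold. The day 0 symbols of 8 enzymes lie between -1.46 and -0.35, and the symbols of day 4, where Rsl24d1 itself was not lower without rescue, lie between -0.18 and 0.41.

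The same comparison under rescue asked how much of the effect was left when ectopic RSL24D1 was expressed. At day 0 with rescue, Mthfd2 and Psat1 were still called lower, 2 of 9 members against 0.188% of all genes, and 8 of 9 members passed the adjusted p with a fall against 5.64%. Mthfd2 was at 114, 115 and 107 TPM in si-CTL libraries with rescue and at 48.2 to 50.4 TPM in the 3 si-Rsl24d1 libraries with rescue, a difference of -1.16 (SE 0.09, adjusted p = 1.6e-08). Psat1 was at 230, 220 and 209 TPM against 118, 122 and 125 TPM, a difference of -0.85 (SE 0.08, adjusted p = 1.1e-07). This lies at the fold threshold, and the call was lost without any 1 of 3 libraries, with differences from -0.85 to -0.82 (si-CTL with rescue replicates 1 and 2, si-Rsl24d1 with rescue replicate 1).

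The other falls under rescue were -0.76 for Asns, -0.71 for Psph, -0.63 for Phgdh, -0.52 for both Shmt2 and Mthfd1l and -0.35 for Shmt1. Expressed as a share of the difference without rescue, 58.3% was left for Phgdh, 61.8% for Shmt1, 62.0% for Shmt2, 70.5% for Psph, 71.8% for Mthfd1l, 79.3% for Mthfd2, 80.0% for Psat1 and 95.6% for Asns. The median of these 8 was 71.2%, against 63.2% over the 687 genes called after knockdown without rescue, a value given as description only. Rsl24d1 mRNA itself differed by -0.50 between these groups. The test of the difference between both knockdown effects passed for 1 of 9 members, Phgdh, against 2.09% of all genes, and 5 of 9 had an unadjusted p under 0.05. Its interaction term was 0.45 (SE 0.07, adjusted p = 0.00076). For Asns the term was 0.03 with a 95% interval from -0.17 to 0.24, and for Mthfd2 it was 0.30 with an interval from 0.03 to 0.58 (adjusted p = 0.23).

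Within si-Rsl24d1 cells at day 0, Phgdh was at 64.0, 67.9 and 65.5 TPM without and at 81.2, 78.8 and 86.5 TPM with rescue, a difference of 0.32 (SE 0.05, adjusted p = 0.00014, limma). It was the 1 member of 9 that rose by the adjusted p, against 3.06% of all genes. Mthfd1 fell by 0.28 (adjusted p = 0.0053), and genes that fell made up 12.2% of all. The median over all genes was -0.11 in this comparison, and after median-of-ratios scaling Psph (0.48), Shmt1 (0.24), Shmt2 (0.29) and Mthfd2 (0.42) also passed the adjusted p as higher. Asns had 108, 106 and 111 TPM without and 108, 114 and 102 TPM with rescue, a difference of 0.00 with a 95% interval from -0.15 to 0.14. In si-CTL cells at day 0 the rescue changed 0 of 9 members by limma's adjusted p (0.0122% of all genes) and 5 at an unadjusted p under 0.05. Differences lay between -0.27 for Mthfd1 and 0.05 for Psph, beside a median of -0.12 over all genes, and 3 rather than 8 members had a negative sign after median-of-ratios scaling.

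At day 4 the libraries labelled si-Rsl24d1 did not show the falls of day 0. Without rescue limma called 0 of 9 members in either direction (1.63% of all genes), with 4 at an unadjusted p under 0.05. By the adjusted p Psph (0.41, adjusted p = 0.0026) and Shmt2 (0.26, adjusted p = 0.0037) were higher, against 24.9% of all genes. All genes had a median of 0.13 in this comparison. After median-of-ratios scaling neither passed (0.25, adjusted p = 0.058, and 0.09, adjusted p = 0.24), Phgdh was lower by the adjusted p at -0.28 (adjusted p = 1e-05), and 6 of 9 members had a negative sign instead of 1, so no direction is drawn for this comparison. Mthfd2, which had the largest fall at day 0, was at 47.7, 62.4 and 47.1 TPM in si-CTL libraries and at 54.8, 50.9 and 55.5 TPM in those labelled si-Rsl24d1, which overlap. Its difference was 0.05 with a 95% interval from -0.15 to 0.24.

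With rescue at day 4 limma again called 0 of 9 members (0.73% of all genes), with 6 at an unadjusted p under 0.05, and 1, Shmt2, passed the adjusted p as higher (2.33% of all genes). Shmt2 was at 51.3, 43.9 and 45.0 TPM with si-CTL and at 59.3, 61.2 and 56.9 TPM with the si-Rsl24d1 label, a difference of 0.34 (SE 0.06, adjusted p = 0.0018). Psat1 (0.29, adjusted p = 0.02), Psph (0.37, adjusted p = 0.02), Mthfd2 (0.37, adjusted p = 0.012) and Asns (0.26, adjusted p = 0.015) did not pass, but Psat1, Mthfd2 and Asns did after median-of-ratios scaling (0.33, 0.41 and 0.31). Within libraries labelled si-Rsl24d1, Asns was higher with than without rescue by 0.44 (SE 0.07, adjusted p = 0.00039, limma) and Phgdh by 0.24 (adjusted p = 0.0029). These were 2 of 9 members, against 0.936% of all genes. Asns was at 371, 381 and 409 TPM without and at 539, 536 and 499 TPM with rescue. In si-CTL libraries at day 4 the rescue changed 0 of 9 members by limma's adjusted p, against 10.2% of all genes, and 3 at an unadjusted p under 0.05.

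The change in the siRNA effect between the days was tested directly. Without rescue the term passed for 8 of 9 members, against 30.9% of all genes, and all 8 were positive, so the difference at day 4 was less negative than at day 0, or positive. The largest was 1.51 for Mthfd2 (SE 0.13, adjusted p = 3.5e-08) and the smallest 0.58 for Shmt1 (SE 0.07, adjusted p = 4.2e-06), and Mthfd1 did not pass (-0.18, adjusted p = 0.13). Rsl24d1 itself had a term of 1.91. With rescue the term passed for 9 of 9 members, against 9.95% of all genes, with Mthfd1 at -0.41 (adjusted p = 0.005). The term between the siRNA and the rescue at day 4 passed for 0 of 9 members by limma's adjusted p, against 8.95% of all genes, and for 4 at an unadjusted p under 0.05.

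At day 4 of RA, si-CTL cells had lower levels of most of these enzymes than at day 0 and a higher level of Asns. Without rescue Shmt2 and Mthfd2 were called lower, 2 of 9 members against 8.24% of all genes, and Asns was called higher, 1 of 9 against 6.77%. By the adjusted p 8 of 9 members fell (36.7% of all genes) and 1 rose (24.1% of all genes). Shmt2 went from 128, 129 and 124 TPM at day 0 to 48.7, 53.2 and 45.9 TPM at day 4, a difference of -1.35 (SE 0.06, adjusted p = 6.5e-13). Mthfd2 went from 115, 116 and 110 TPM to 47.7, 62.4 and 47.1 TPM, a difference of -1.11 (SE 0.09, adjusted p = 2.3e-09). Asns rose from 200, 187 and 181 TPM to 360, 432 and 372 TPM, a difference of 1.03 (SE 0.07, adjusted p = 8.2e-11). No library of 1 day overlapped with the other day for these 3 genes. Over all genes, 43.5% lay wholly lower at day 4 and 28.9% wholly higher.

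Mthfd1l (-0.85) and Psph (-0.84) lay just under the fold threshold, and both were called when 1 of 4 libraries was left out (si-CTL without rescue, day 0 replicate 2 or 3, day 4 replicate 1 or 2), which gave 5 called members instead of 3. Shmt1 fell by 0.79 (adjusted p = 6.9e-11), Mthfd1 by 0.66 (adjusted p = 4.6e-08), Psat1 by 0.65 (adjusted p = 3.9e-07) and Phgdh by 0.24 (adjusted p = 0.00025). The median over all genes was -0.10, and after median-of-ratios scaling Phgdh did not pass (-0.11, adjusted p = 0.016). Atf4 fell from between 169 and 177 TPM to 89.1, 115 and 82.3 TPM, a difference of -0.86 (adjusted p = 1.3e-07), while Asns rose in the same libraries. The sources differ on when the day 4 cells were collected relative to transfection and on LIF beside RA. The study's methods also plate cells at low density for RA. Any part of the time since transfection, of LIF withdrawal or of plating density in these differences cannot be told apart from RA.

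With rescue si-CTL cells gave a similar list. Shmt2 (-1.26, adjusted p = 1.6e-12), Mthfd2 (-1.15, adjusted p = 1.5e-09) and Psph (-0.86, adjusted p = 2.5e-07) were called lower, 3 of 9 members against 4.82% of all genes, and Asns (1.24, adjusted p = 4.6e-12) higher, 1 of 9 against 10.7%. Psph was near the threshold and lost its call without any 1 of 3 libraries, at differences from -0.82 to -0.81 (si-CTL with rescue, day 0 replicate 1 or 2, day 4 replicate 2). Phgdh was at 131, 131 and 120 TPM and then at 133, 116 and 124 TPM, a difference of -0.03 with a 95% interval from -0.13 to 0.07. After median-of-ratios scaling the difference was -0.18 and passed (adjusted p = 0.00021), beside a median of 0.12 over all genes before it.

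In cells labelled si-Rsl24d1 several of these enzymes were higher at day 4 than at day 0. Rsl24d1 mRNA itself was higher at day 4 in these cells without rescue, by 1.39 (adjusted p = 1.1e-12, limma). Any part of this return of Rsl24d1 in the differences cannot be told apart from RA. Without rescue no member was called lower, in a comparison where 2327 of 16447 genes were called in either direction. Asns was called higher, 1 of 9 members against 7.93% of all genes. It rose from 108, 106 and 111 TPM to 371, 381 and 409 TPM, a difference of 1.83 (SE 0.07, adjusted p = 1.3e-14). By the adjusted p 5 of 9 members rose (29.4% of all genes), namely Asns, Phgdh (0.72), Psat1 (0.63), Psph (0.58) and Mthfd2 (0.39). Mthfd1 (-0.85, adjusted p = 1.4e-09), Shmt2 (-0.25) and Shmt1 (-0.21) fell, 3 of 9 against 26.4%. Mthfd1 was just under the threshold and was called without 1 of 3 libraries (day 0 replicate 3, day 4 replicate 2 or 3) at -0.91 to -0.86.

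With rescue Asns had its highest levels of the whole series. It rose from 108, 114 and 102 TPM at day 0 to 539, 536 and 499 TPM at day 4, a difference of 2.27 (SE 0.07, adjusted p = 6e-16), the 1 of 9 members called higher (9.34% of all genes). By the adjusted p 4 of 9 members rose (32.4% of all genes), with Psat1 at 0.78, Phgdh at 0.65 and Mthfd2 at 0.38, and 3 of 9 fell (25.8% of all genes), with Mthfd1 at -0.68, Shmt2 at -0.41 and Shmt1 at -0.34.

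**Figure D3:**
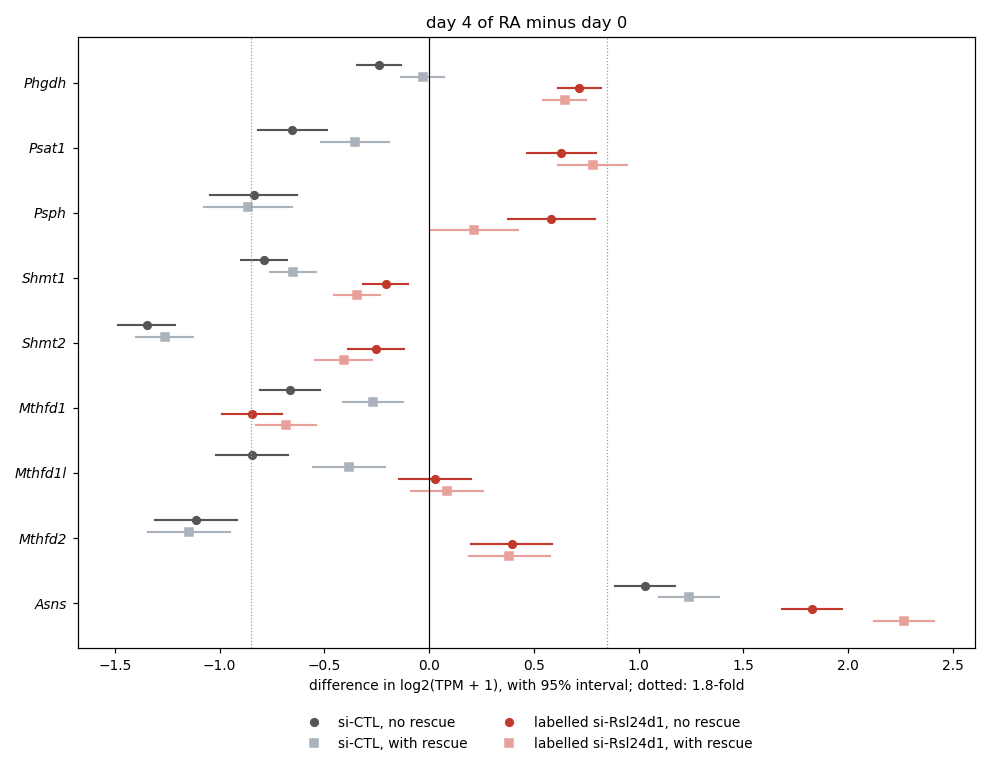
Difference in log2(TPM + 1) between day 4 of RA and day 0 (x axis, limma estimate with 95% interval) for the 9 tested enzymes (y axis), with 1 symbol for each siRNA label and rescue and dotted lines at 1.8-fold. Asns lies to the right of 1.8-fold in all 4 conditions, from 1.03 to 2.27, while Mthfd2 lies at -1.15 and -1.11 in si-CTL and at 0.38 and 0.39 in cells labelled si-Rsl24d1. In the latter without rescue, Rsl24d1 itself rose by 1.39 between these days.

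The balance within the set shifted between days. Without rescue Asns made up 15.4% to 16.2% of the summed TPM of the 10 enzymes in si-CTL libraries at day 0 and 38.1% to 39.9% at day 4, and with rescue 15.9% to 17.4% and 40.3% to 41.2%. After knockdown at day 0 without rescue its share was 14.7% to 16.0%, which overlaps the control. The ratio of Shmt2 to Shmt1 at day 4 was 0.451 to 0.454 with si-CTL and 0.511 to 0.588 with the si-Rsl24d1 label without rescue, and 0.410 to 0.440 and 0.517 to 0.589 with rescue. The ratio of Psat1 to Phgdh at day 0 without rescue was 1.69 to 1.76 with si-CTL and 1.65 to 1.85 with si-Rsl24d1, which overlap. With rescue it was 1.68 to 1.75 and 1.44 to 1.55, which do not overlap.

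**Figure D4:**
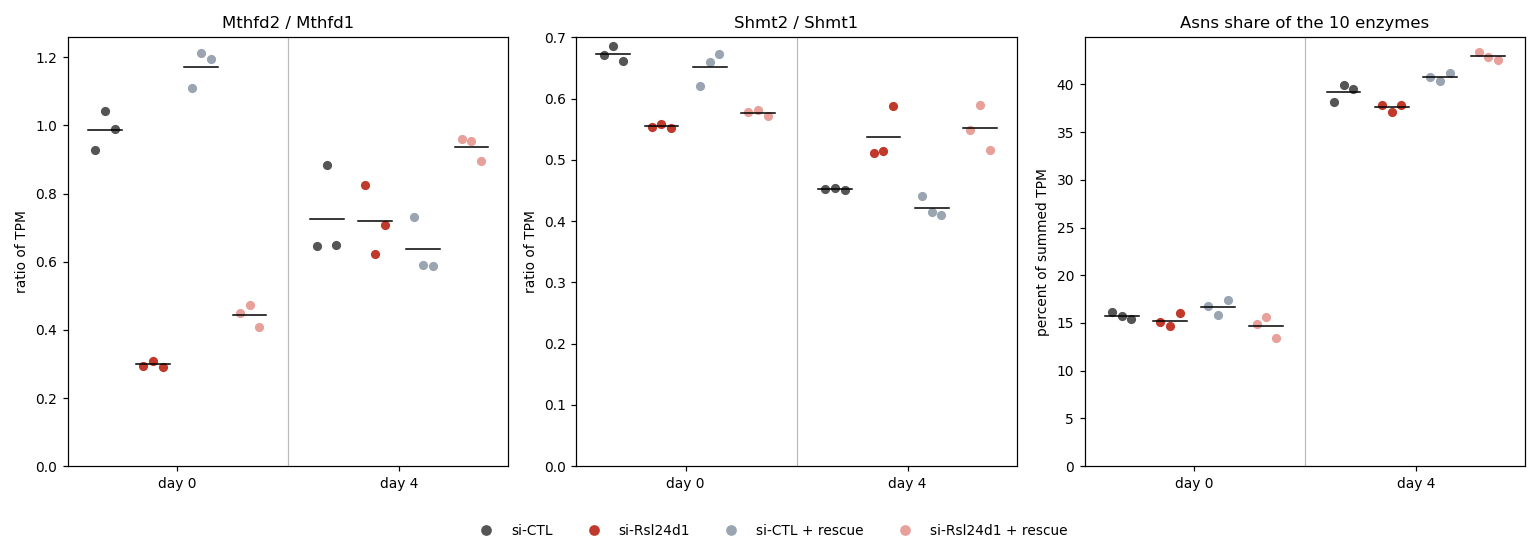
Ratios of TPM for the mitochondrial to the cytosolic enzyme of each pair and the share of Asns in the summed TPM of the 10 enzymes (y axes from 0), with 1 point per library, a line at the mean of 3 and the groups by day on the x axis. The Mthfd2 to Mthfd1 ratio is at or below 0.472 in all day 0 si-Rsl24d1 libraries and at or above 0.587 elsewhere, and the share of Asns is at most 17.4% at day 0 and at least 37.1% at day 4.

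Enzymes of neighbouring pathways moved at day 0 without rescue as follows. Their lists share no gene with the 10, but were also chosen with earlier results of these data known. Of their 52 tested genes 25 were lower and 3 higher by the adjusted p, beside the 16.1% lower and 14.3% higher over all genes, and shares near these are no result about a list. Of 4 tested genes of the glycine cleavage system, which breaks down glycine to a one-carbon unit in mitochondria, 4 fell by the adjusted p and 1, Gldc, was called. Gldc, the glycine decarboxylase, went from 155, 144 and 138 TPM to 75.9, 78.9 and 71.4 TPM, a difference of -0.94 (SE 0.07, adjusted p = 9.7e-10). Of 11 tested genes of other amino acid synthesis, 7 fell and 3 were called, with 0 rising. These were Gpt2, a mitochondrial alanine aminotransferase (-1.34), and Pycr1 (-1.23) and Aldh18a1 (-1.20), which make proline. Of 9 genes of purine synthesis, which consumes one-carbon units, 7 fell, none past the fold threshold, with a median of -0.30 and the largest fall in Atic at -0.57.

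Other folate genes were mixed. Of 13 tested, 4 fell and 1 rose by the adjusted p, with a median of -0.11. The one that rose, Aldh1l1, is the cytosolic counterpart of Aldh1l2 and oxidises formyl-tetrahydrofolate. It was at 2.06, 2.18 and 2.00 TPM in si-CTL libraries and at 14.7, 13.3 and 14.4 TPM in si-Rsl24d1 libraries, a difference of 2.30 (SE 0.08, adjusted p = 3.9e-14). With rescue the difference was 1.41 (adjusted p = 2.1e-10), and the interaction with the rescue passed at -0.89 (adjusted p = 0.00021). Of 10 genes of the methionine cycle and transsulfuration 2 fell and 1 rose, and of 5 genes of serine use and mitochondrial serine transport 1 fell and 1, Srr, the serine racemase, was called higher (0.90, adjusted p = 0.00027). Over the 6 lists 4 of 52 tested genes were called lower and 2 higher. Of all 16447 genes 127 (0.772%) were called lower and 687 in either direction. Most calls over all genes were thus rises, and the 2 called higher are no result about these lists. A single called gene is no result about its list.

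**Figure D5:**
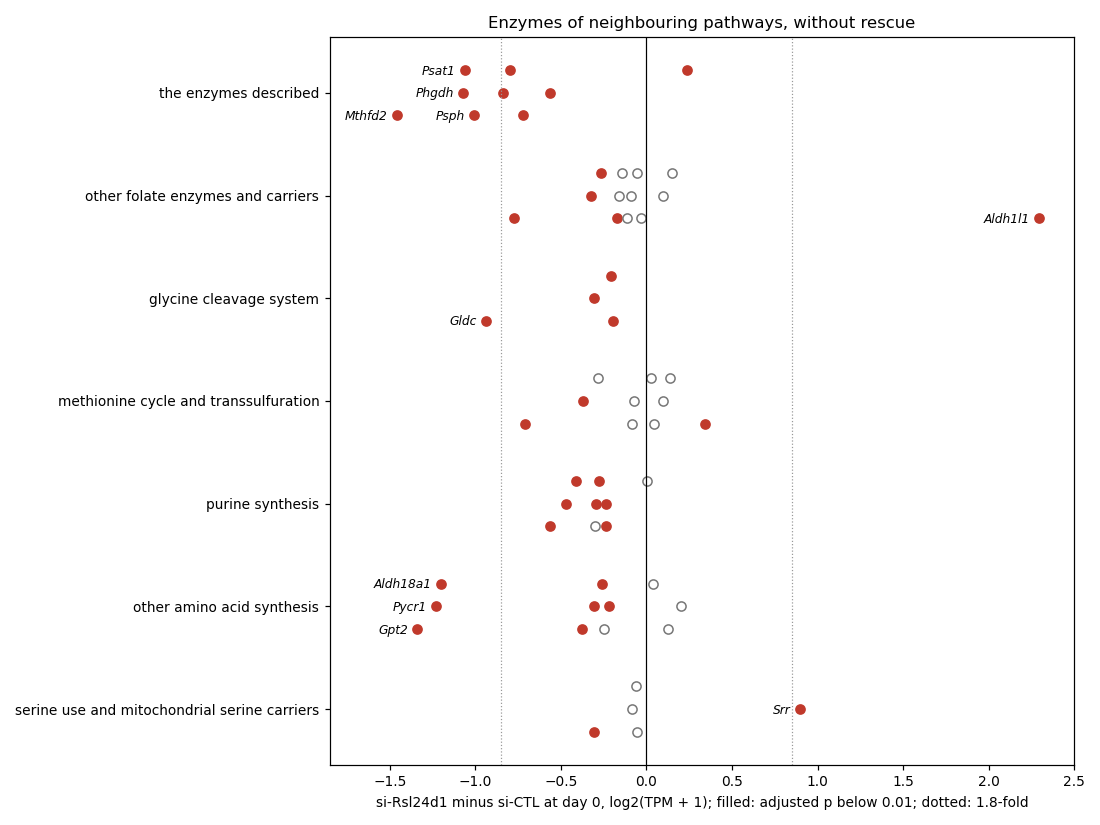
Difference in log2(TPM + 1) between si-Rsl24d1 and si-CTL libraries at day 0 without rescue (x axis) for each tested gene of 7 lists (y axis), filled where the adjusted p from limma is below 0.01, with names where the change also exceeds 1.8-fold and points shifted vertically for display. The called genes range from Mthfd2 at -1.46 to Aldh1l1 at 2.30.

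Across the 24 libraries, the genes with a course closest to the mean of the 10 enzymes were Aars (Pearson r = 0.991) and Nars (0.979), the alanyl- and asparaginyl-tRNA synthetases, then Chac1 (0.976), Stk38 (0.973) and Herpud1 (0.966). Atf4 had r = 0.888 and rank 46 of 16438 genes. These are descriptions over libraries that share their groups, so the 24 points are not independent. The members did not all follow each other: Shmt1 and Shmt2 had r = 0.963, Psph and Mthfd2 0.911 and Phgdh and Psat1 0.900, but Mthfd1 and Asns had -0.914 and Shmt2 and Asns -0.596. The closest gene outside the set was Slc3a2 for Shmt2 (0.992), Pml for Mthfd1 (0.989), Aldh18a1 for Psat1 (0.988), Pla1a for Asns (0.987), Adpgk for Shmt1 (0.980), Bcat1 for Phgdh (0.976), Herpud1 for Mthfd2 (0.972), Grik3 for Mthfd1l (0.960), Ubap1l for Psph (0.948) and Mical1 for Aldh1l2 (0.892).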

How the data were processed

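RNA-seq was measured in 24 libraries of CGR8 ESCs. The authors aligned reads, estimated transcript abundance, and deposited 1 table of gene values on a log2(TPM + 1) scale, not raw counts. The submitters' processing notes name Salmon 1.4.0, STAR 2.7.8a and a human build, whereas the study's methods name mouse GRCm38 and other versions. The sources also disagree on the kit (poly-A or stranded total RNA), on 48 or 72 h of collection and on LIF beside RA. TPM are relative to each library's total, so the depth is unknown, no count test was possible, and the precision rests on 3 libraries per group. Two-sided exact permutation of 3 against 3 cannot go below p = 0.1, so limma 3.58.1 in R 4.3.3 was fitted to 8 group means over all 16447 genes with a mean of at least 0.5 (empirical Bayes with an intensity trend, Benjamini-Hochberg per comparison). The fit was tested on simulated data. Replicate numbers pair no samples (mean correlation of same-numbered deviations -0.0173, range -0.223 to 0.169 over 84 pairs), and no library duplicates another (highest correlation 0.991).

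The enzymes, the pathway and marker lists and the motifs were chosen with earlier results of these data known. Genes named are the 10 enzymes, Rsl24d1, Atf4, at most 3 called genes per list and direction, and the genes of closest course. Cct6a, D10Wsu102e and Atic were added after values were seen. Alternatives were 0.1 or 2 added to TPM, other filters, median-of-ratios scaling, no fold threshold, only the groups compared, a replicate block and leaving out each library.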

Additional observations from a re-analysis of the deposited data

Results flagged for a closer look

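The effect of the siRNA label differed between day 0 and day 4 by limma's interaction test. Each value is the difference at day 4 minus the difference at day 0, in log2(TPM + 1). Without rescue it was 1.51 for Mthfd2, 1.42 for Psph, 1.28 for Psat1, 1.09 for Shmt2, 0.96 for Phgdh, 0.87 for Mthfd1l, 0.80 for Asns and 0.58 for Shmt1. With rescue it was 1.53 for Mthfd2, 1.13 for Psat1, 1.08 for Psph, 1.03 for Asns, 0.85 for Shmt2, 0.68 for Phgdh, 0.47 for Mthfd1l, 0.31 for Shmt1 and -0.41 for Mthfd1. Rsl24d1 mRNA had terms of 1.91 without and 0.65 with rescue in the same libraries, and its part in these differences was not tested.

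At day 0 the siRNA effect on Phgdh differed with the rescue by 0.45 (adjusted p = 0.00076), from -1.07 without to -0.63 with rescue. No other member passed this test by the adjusted p, and 5 of 9 members, Phgdh included, had an unadjusted p under 0.05.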

How the results depend on the processing

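Of 244 recomputed counts of members, 218 stayed within 1.5 times, 4 were weaker, 22 were stronger and 0 reversed. Of 1512 recomputed single values 1444 kept their side, 8 were weaker, 60 stronger and 0 reversed, and 48 that were not called changed sign. With no fold threshold the members passing were 9 for knockdown at day 0 and 8 with rescue, 2 for the rescue in si-Rsl24d1 at day 0, 2 for the siRNA label at day 4 and 1 with rescue, 2 for the rescue in cells labelled si-Rsl24d1 at day 4, and, for RA, 9 in si-CTL, 8 in si-Rsl24d1, 8 in si-CTL with rescue and 7 in si-Rsl24d1 with rescue. With 0.1 added to TPM RA called 5 members in si-CTL without rescue and 2 in si-Rsl24d1 without rescue, and with 2 added knockdown with rescue called 1. With median-of-ratios scaling RA called 2 in si-Rsl24d1 without rescue, and the interaction with the rescue at day 4 passed for 2 instead of 0.

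Leaving out each library gave 3 to 5 called members for RA in si-CTL, 3 to 4 with rescue, 1 to 2 in si-Rsl24d1 without rescue, 1 to 2 for knockdown at day 0 with rescue, 4 to 5 for knockdown without rescue, 6 to 8 for the interaction with the day under rescue, and 0 to 1 for the interaction with the rescue at day 4 (1 without the library labelled si-Rsl24d1 without rescue, day 4, replicate 1). Shmt2 was the fifth member called at day 0, at -0.86 to -0.85, without 1 of 3 libraries (si-CTL replicate 3, si-Rsl24d1 replicate 1 or 2). The calls of the replicate block fit were 4 for knockdown at day 0 and 2 with rescue, as without pairing, and 8 instead of 9 for the interaction with the day under rescue. The other comparisons kept their counts when a library was left out (0, 1 or 8 members). The causes of these changes were not tested. The unknown depth leaves Aldh1l2 without a counting interval.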

Other observations

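Single libraries stood out within their groups across the enzymes. Among the si-CTL libraries with rescue at day 4, replicate 1 was the highest for 8 of 9 members and replicate 2 the lowest for 9 of 9, and their summed levels over the 10 enzymes were 1166 and 984 TPM. In si-CTL libraries without rescue at day 4, replicate 2 was the highest for 7 of 9 members, with Mthfd2 at 62.4 TPM against 47.7 and 47.1 TPM and Atf4 at 115 TPM against 89.1 and 82.3 TPM. At day 0 replicate 3 of the si-CTL libraries with rescue was the lowest for 8 of 9 members, in a group whose summed levels ran from 1050 to 1152 TPM, and replicate 1 of those without rescue was the highest for 7 of 9, in a group that ran from 1172 to 1234 TPM. In libraries labelled si-Rsl24d1 at day 4, replicate 3 was the highest for 7 of 9 members and replicate 1 the lowest for 7 of 9 without rescue, and replicate 3 the lowest for 7 of 9 with rescue. Replicates have no order, and these groups of 3 were not tested.

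Of the 52 tested genes of the 6 neighbouring pathway lists, 10 were called lower (8.24% of all genes) and 3 higher (6.77% of all genes) with RA in si-CTL cells without rescue. The largest falls were in Cth (-1.82) and Cbs (-1.55), which carry homocysteine to cysteine, Gldc (-1.53) and Pfas (-1.43), a purine synthesis enzyme. The genes called higher were Srr (0.98), Bhmt (0.87), which remethylates homocysteine, and Pycr1 (0.86). Bhmt and Pycr1 lay near the fold threshold, and Bhmt averaged 0.577 TPM, a level where a few reads decide the value.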
